A study of Homo sapiens with 54 samples.

Results

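The replication-dependent histone genes are the clustered, multicopy genes for the linker histone H1 and the core histones H2A, H2B, H3 and H4. They were taken by symbol from the expression table, as H1-1 to H1-5 and the numbered H2AC, H2BC, H3C and H4C genes, and numbered second entries for an alternate copy of a locus were left out. This gave 68 of 50037 entries: 5 H1, 17 H2A, 18 H2B, 13 H3 and 15 H4 genes. Polyadenylated RNA was sequenced from 2 established human tumour lines, HCT116 (colon cancer) and HepG2 (liver cancer, named by the submitters as a liver cancer stem cell). Each line had 9 groups of 3 libraries. One group, called NC, was given only an equal volume of complete medium, and its labels state no time. The other 8 groups were exposed for 3 h or for 6 h to IL-6 at 50 ng/mL, to IL-10 at 50 ng/mL, to TNF-α at 100 ng/mL or to Torin1 at 1 µM. IL-6 and IL-10 are cytokines that act through STAT3, TNF-α is a cytokine that activates NF-kB, and Torin1 blocks the catalytic site of the growth kinase mTOR. No genetic change was introduced in any group, and all groups grew in the same serum-containing medium. Each line is a single tumour line, and the 3 libraries of a group are called biological replicates without a statement that they are separate cultures. P-values therefore cover only library-to-library spread within a group, possibly technical.

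Replication-dependent histone genes are transcribed mainly in S phase, when new DNA has to be packed into nucleosomes, and the coactivator NPAT drives them at nuclear histone locus bodies. Their main transcripts have no introns and no poly(A) tail. The messages end just after a conserved stem-loop that is bound by the protein SLBP and cut by the U7 particle, of which LSM10 and LSM11 are parts. Some copies also give polyadenylated transcripts that read through the stem-loop or are spliced, and poly(A) selection captures those forms while leaving the tailless ones out. All values below are therefore levels of polyadenylated histone RNA and not of the S-phase messages. In these bulk libraries, fewer cells that make a transcript and less of it per cell cannot be told apart.

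The stem-loop is the element whose presence inside a polyadenylated transcript marks read-through, so its sites are shown for 6 members whose values follow. Sequences come from GENCODE release 29 transcripts, read 5′ to 3′. Capitals mark the 16-base stem-loop and lower case the 5 bases on each side.
H2AC6: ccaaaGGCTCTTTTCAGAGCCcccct
H2AC11: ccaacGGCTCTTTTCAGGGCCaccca
H2AC8: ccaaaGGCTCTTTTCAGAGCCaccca
H2BC8: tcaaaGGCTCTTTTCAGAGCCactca
H3C10: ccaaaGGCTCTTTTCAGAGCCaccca
H4C5: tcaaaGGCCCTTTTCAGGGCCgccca
An exact match to one of 3 stem-loop spellings was found in the transcripts of 23 of the 68 members. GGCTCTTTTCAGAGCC was found in 17 members, 6 of H2A, 8 of H2B and 3 of H3. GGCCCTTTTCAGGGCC was found in 5 members, all of H4, and the mixed spelling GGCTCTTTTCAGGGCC in 1, H2AC11. In 16 of the 23 the annotated transcript ran on for at least 100 bases past the stem-loop, and in 12 of those 16 the last 40 bases held a polyadenylation hexamer, AATAAA or ATTAAA. Of the members shown, H2AC8 was not among the 16, as its transcript ended 51 bases past the stem-loop. H2BC8 ran on but held no such hexamer. H1-2, H2BC12, H2BC5 and H2AC20 had no match. A stem-loop spelled otherwise or lying beyond the annotated end would be missed. For H2AC6 the annotated transcript had 1654 bases, 1114 of them after the stem-loop, while the deposited values were divided by a gene model of 519 bases. For H4C5 the transcript had 1487 bases and the counted model 412. The stretch of these transcripts beyond the counted model does not enter their values.

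The promoters are shown for 3 members that differ between the lines or moved with a treatment: H1-2 (chr6:26056471-26056720), H2BC12 (chr6:27146859-27147108) and H2BC8 (chr6:26216689-26216938), all on the minus strand of GRCh38.p14, from RefSeq. Each line gives the 250 bases before the transcript start, read in the direction of the gene. Capitals mark the octamer ATTTGCAT, which octamer-binding factors recognise in H2B promoters, the CCAAT box and TATAAA, each searched on both strands.
H1-2: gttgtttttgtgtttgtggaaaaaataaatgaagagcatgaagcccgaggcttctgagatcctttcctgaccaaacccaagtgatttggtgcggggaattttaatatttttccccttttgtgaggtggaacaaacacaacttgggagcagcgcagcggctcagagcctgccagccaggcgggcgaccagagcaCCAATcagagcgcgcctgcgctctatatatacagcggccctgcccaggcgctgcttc
H2BC12: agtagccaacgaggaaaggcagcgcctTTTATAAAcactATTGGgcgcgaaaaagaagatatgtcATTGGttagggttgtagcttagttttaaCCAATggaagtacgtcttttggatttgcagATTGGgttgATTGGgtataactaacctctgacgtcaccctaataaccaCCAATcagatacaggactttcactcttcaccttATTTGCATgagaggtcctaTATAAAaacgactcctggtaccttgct
H2BC8: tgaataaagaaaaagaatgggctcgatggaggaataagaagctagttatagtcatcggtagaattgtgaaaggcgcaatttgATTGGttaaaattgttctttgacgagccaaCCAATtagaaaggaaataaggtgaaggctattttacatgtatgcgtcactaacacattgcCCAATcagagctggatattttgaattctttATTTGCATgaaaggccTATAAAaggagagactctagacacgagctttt
H2BC12 held 1 octamer, 6 CCAAT boxes and 3 matches to TATAAA in this stretch, H2BC8 held 1, 3 and 1, and H1-2 held 0, 1 and 0. Some of the TATAAA matches of H2BC12 overlap on opposite strands, so its capitals show fewer stretches than matches. In windows of 300 bases, 250 before and 50 after the start, 63 of the 68 members had an entry, and H2AC12, H3C11, H3C12, H4C1 and H4C3 had none. The octamer was present in 11 of 16 H2A, 14 of 18 H2B, 1 of 11 H3, 0 of 13 H4 and 0 of 5 H1 windows, against 1.774% of all 35116 promoters in the table. CCAAT was present in 16 of 16 H2A, 18 of 18 H2B, 11 of 11 H3, 5 of 5 H1 and 3 of 13 H4 windows, against 34.614% of all. TATAAA was present in 12 of 16 H2A, 12 of 18 H2B, 9 of 11 H3, 7 of 13 H4 and 3 of 5 H1 windows, against 11.53% of all. A match is a description of the letters and not of a bound site.

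The values are FPKM, fragments per kilobase of gene model scaled to library depth, with 38536745 to 55737150 reads on genes per HCT116 library and 46320865 to 93700982 per HepG2 library. Hepatocyte markers summed to 12231 to 14801 FPKM per library in HepG2, with 8 of 9 above the test filter, and to 2.24 to 8.69 in HCT116. Colon epithelium markers summed to 165 to 191 FPKM in HCT116, but only 2 of 8 were above the filter there, and to 186 to 209 in HepG2. Markers of blood, fibroblast and endothelial cells summed to at most 6.57, 1.82 and 0.0980 FPKM in HCT116, and to at most 35.9, 1.16 and 0.636 in HepG2. FTH1 and EIF4A1, genes that every cell uses, were listed at 0 in all 54 libraries, which means that a value of 0 may stand for a failed estimate; such genes are called listed at 0.

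Most of the histone genes were at or near 0. Of the 68, 45 did not reach 1 FPKM in any library, and 7 were listed at 0 in all 54: H2AC1, H2AC19, H3C11, H3C15, H4C13, H4C6 and H4C7. The test filter, at least 1 FPKM in at least 3 of the 27 libraries of a line, was passed by 14 members in HCT116 and 18 in HepG2, 11 of them in both. H2BC12, H4C12 and H4C4 passed in HCT116 alone, and H2AC13, H2AC8, H2BC13, H2BC4, H2BC8, H3C3 and H4C11 in HepG2 alone. By family, H1 had 1 passing member in each line (H1-2), H2A 5 in HCT116 and 7 in HepG2, H2B 4 and 6, H3 1 and 2, and H4 3 and 2. Of the chromosome 6 members, 33 lie between positions 25726063 and 26285534, 5 between 27132316 and 27147562 and 16 between 27807479 and 27893891 of GRCh38.p14, and each of these 3 clusters had passing members. Chromosome 1 holds 11 members between 149782689 and 149887965, of which only H2AC20 passed, and 2 between 228457364 and 228458558, of which none passed. H4C16 lies alone on chromosome 12 (14770720 to 14771131) and stayed under the filter.

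H1-2 and H2BC12 gave most of the polyadenylated histone RNA in HCT116. In the NC libraries of HCT116 all 68 members summed to 60.8 ± 2.35 FPKM (SD, n = 3) and 27.2 ± 1.48 without these 2 genes. In HepG2 the sums were 44.2 ± 1.5 and 32.5 ± 1.04. All members together took 0.00658% of the reads in HCT116 NC and 0.00319% in HepG2 NC. The H2B genes summed to 24.7 FPKM in HCT116 and 7.91 in HepG2, the H2A genes to 12.4 and 15.9, the H1 genes to 16 and 12, the H4 genes to 5.13 and 4.70 and the H3 genes to 2.54 and 3.73. The plot of levels by library shows the steep order of the genes within each line.

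**Figure D1:**
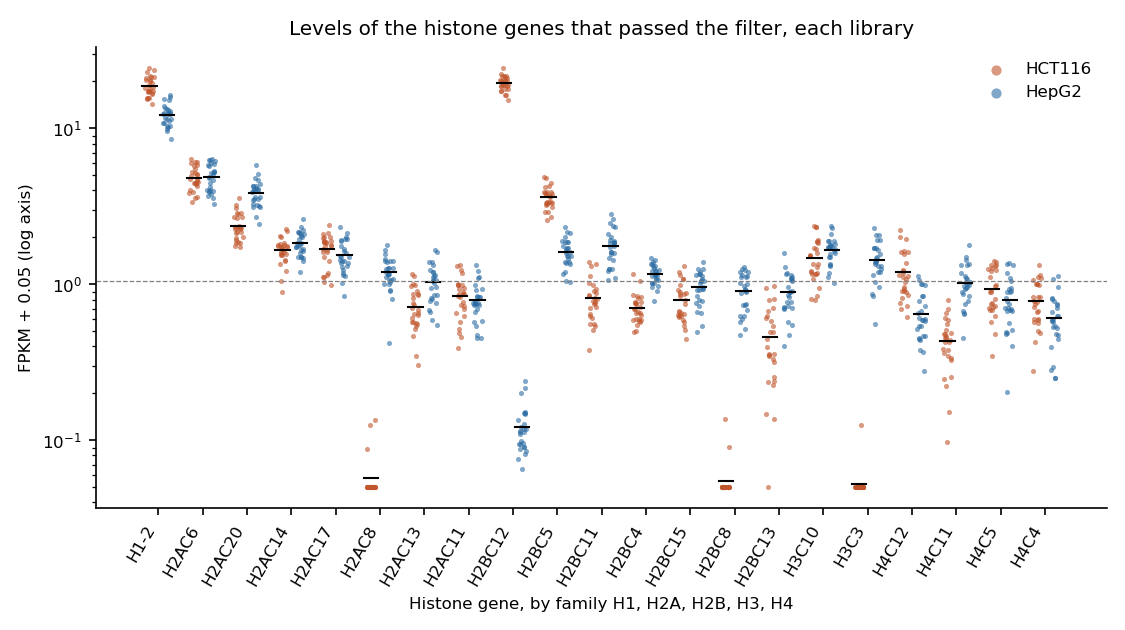
FPKM of the 21 members that passed the filter in at least 1 line, in every library (points, 27 per line; vertical log axis of FPKM + 0.05) with the mean as a bar and 1 FPKM as a dashed line. H1-2 stood at 8.48 FPKM or more in all 54 libraries, and H2BC12 at 15.2 or more in HCT116 and at 0.192 or less in HepG2.

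H1-2, which codes for a linker histone that binds DNA between nucleosomes (chr6:26055740-26056470, minus strand, a single exon), was the only H1 member above the filter. It had 15.7, 14.3 and 17.2 FPKM in HCT116 NC and 12.4, 12.2 and 10.3 in HepG2 NC, from 494 to 920 reads per HCT116 library and 327 to 724 per HepG2 library. H1-4 averaged 0.322 and 0.275 FPKM over the 27 libraries of each line, and H1-1, H1-3 and H1-5 rested on 1, 6 and 0 reads in all of HCT116.

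Among the H2A genes, which code for the core histone that pairs with H2B, H2AC6 (chr6:26124172-26124690) was the highest in HCT116 NC at 4.92 ± 0.915 FPKM. H2AC20 (chr1:149886918-149887411) was the highest in HepG2 NC at 4.56 ± 1.08, within its spread of H2AC6 at 4.33 ± 0.711. In HCT116, H2AC20 stood at 2.24 ± 0.111, H2AC14 at 1.37 ± 0.463, H2AC17 at 1.34 ± 0.552 and H2AC11 at 0.811 ± 0.419. In HepG2, H2AC14 stood at 1.65 ± 0.242, H2AC17 at 1.48 ± 0.161, H2AC8 at 1.28 ± 0.288, H2AC13 at 1.04 ± 0.489 and H2AC11 at 0.623 ± 0.197. Below H2AC20 and H2AC6, neighbouring genes in this order did not differ beyond their spread. H2AC13 and H2AC14 share an identical 150-base window, as do H2AC18 and H2AC19, so their reads could be split between copies and their levels are uncertain.

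Among the H2B genes, H2BC12 (chr6:27138293-27146858, minus strand) had 17.8 ± 1.43 FPKM in HCT116 NC, H2BC5 (chr6:26158121-26171349, plus strand) 3.04 ± 0.50, H2BC11 (chr6:27132316-27132795) 0.917 ± 0.310 and H2BC15 0.531 ± 0.0655. In HepG2 NC, H2BC5 had the highest mean, 1.53 ± 0.190 FPKM, but its libraries overlapped those of H2BC11 at 1.31 ± 0.187. Over all 27 HepG2 libraries H2BC11 averaged 1.73 FPKM and H2BC5 1.57. The others in NC were H2BC15 at 0.912 ± 0.262, H2BC4 (chr6:26113170-26123926) at 0.899 ± 0.154, H2BC13 at 0.729 ± 0.354 and H2BC8 at 0.635 ± 0.0963. The gene models of H2BC12, H2BC5 and H2BC4 contain introns. The counted length was 1275 of 8566 spanned bases for H2BC12, 1072 of 13229 for H2BC5 and 2426 of 10757 for H2BC4. H4C9 lies inside the span of H2BC12.

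The H3 and H4 genes code for the tetramer at the nucleosome core and were low in both lines. H3C10 had 1.11 ± 0.00299 FPKM in HCT116 NC and 1.54 ± 0.361 in HepG2 NC, and H3C3 (chr6:26045384-26045869) 1.42 ± 0.218 in HepG2. In HCT116 NC, H4C12 stood at 1.07 ± 0.499 FPKM, H4C5 (chr6:26204610-26205021) at 1.07 ± 0.386 and H4C4 at 0.644 ± 0.0460, with no test between the genes. In HepG2 NC, H4C11 (0.897 ± 0.0726) and H4C5 (0.416 ± 0.252) were the H4 members above the filter. H4C11 and H4C12 share an identical 150-base window and their levels are uncertain. H4C15 drew 9549 reads in HCT116 and 7651 in HepG2 over a model of 11983 bases that overlaps H2AC19 and H3C15, but per length it averaged 0.597 and 0.419 FPKM and stayed under the filter.

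The mock-treated libraries were compared to ask how the lines differ in these genes. Of 21 members tested, 4 were higher in HCT116 and 8 lower (limma, Benjamini-Hochberg adjusted p under 0.05), where 85.6% of all 12992 genes tested differed, 42.2% higher and 43.3% lower, so a call by itself sets no member apart. Of the 12 called members, 7 passed the filter only in the line where they were high, so the filter fixed their direction, and their levels are given as a description with no test. Of the 11 members that passed in both lines, 3 were higher in HCT116 and 2 lower, where 83.5% of the 9683 genes passing in both were called. The 3 include H4C5, whose call is no test result, as given below. Differences are on the log2(FPKM + 1) scale, HCT116 minus HepG2, and understate those of low genes.

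H2BC12, which passed the filter in HCT116 alone, stood furthest apart. Its HCT116 NC libraries had 16.4, 17.8 and 19.3 FPKM and its HepG2 NC libraries 0.0377, 0.0466 and 0.0976 (log2 4.15), and the groups did not come near each other. Among members that passed in both lines, H2BC5, another H2B gene with an intron, had 2.66, 3.61 and 2.86 FPKM in HCT116 NC and 1.32, 1.66 and 1.63 in HepG2 NC (log2 0.67, SE 0.13, limma adjusted p = 1.54e-05), without overlap. H1-2 was higher in HCT116 by log2 0.41 (SE 0.095, limma adjusted p = 0.000164). H4C5 was called higher as well (log2 0.55), but its libraries overlapped, and without HepG2 NC replicate 1 the call was lost (log2 0.41). None of its HepG2 NC libraries reached 1 FPKM. It passed the filter in HepG2 mainly through the IL-10 libraries, so its values are a description with no test.

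H3C3, H2AC8 and H2BC8 passed the filter in HepG2 alone and were listed at 0 in all 3 HCT116 NC libraries. In HepG2 NC, H3C3 had 1.25, 1.67 and 1.35 FPKM, H2AC8 had 1.61, 1.11 and 1.12 and H2BC8 had 0.524, 0.688 and 0.694. H4C11 (log2 -0.54), H2BC4 (-0.32) and H2BC13 (-0.41) also passed in HepG2 alone. H2AC20, which passed in both lines, had 2.32, 2.11 and 2.28 FPKM in HCT116 NC and 3.96, 5.81 and 3.92 in HepG2 NC (log2 -0.76, SE 0.16, limma adjusted p = 4.82e-05), so its lowest HepG2 library stood above every HCT116 one. H2BC15 was lower as well (log2 -0.31, limma adjusted p = 0.0297). Its call was lost without HCT116 NC replicate 1 or 3 or HepG2 NC replicate 1 (log2 -0.20 to -0.32), with no filter (limma adjusted p = 0.0575) and with total-read scaling (log2 -0.22, limma adjusted p = 0.120). H2AC6, at 4.92 ± 0.915 and 4.33 ± 0.711 FPKM, did not pass, nor did H2AC11, H2AC13, H2AC14, H2AC17, H2BC11, H3C10, H4C12 and H4C4.

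Some members drew nearly all their reads from 1 line. Taking members with a mean of at least 0.1 FPKM over the 27 libraries of a line and at least 10 times the mean of the other line, 5 stood on the HCT116 side and 4 on the HepG2 side. They were chosen by these means, so the levels are a description with no test. On the HCT116 side, H2BC12 drew 33157 reads against 138, and its lowest HCT116 library (15.2 FPKM) stood far above its highest HepG2 library (0.192 FPKM). H3C12 averaged 0.265 FPKM (181 reads against 10), H3C1 0.265 (177 against 2) and H2AC12 0.246 (151 against 17), but single libraries of the lines overlapped in all 3 genes. H2AC25 averaged 0.299 FPKM from 202 reads and was listed at 0 in all 27 HepG2 libraries. A second entry for an alternate copy of H2AC25 held 1 read, so its level is uncertain.

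On the HepG2 side, H3C3 averaged 1.39 FPKM from 1020 reads, with 2 reads in HCT116, where 26 of 27 libraries were listed at 0. H2AC8 averaged 1.15 FPKM (900 reads against 5), H2BC8 0.859 (636 against 3) and H2BC3 0.13 (94 against 2). The libraries of the lines did not overlap for H3C3, H2AC8 and H2BC8, while H2BC3 was listed at 0 in 6 HepG2 libraries and overlapped. H2AC8 (chr6:26216921-26217437, plus strand) and H2BC8 (chr6:26216200-26216688, minus strand) are neighbours that start 233 bases apart, and H2BC3 (chr6:26043227-26043713) and H3C3 lie next to each other in the same cluster. H2BC12 and H2AC12 (chr6:27147106-27147562) are likewise neighbours with starts 248 bases apart.

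Many H2A and H2B genes are arranged this way, head to head across a shared promoter. There were 12 such pairs within 500 bases, with starts 194 to 248 bases apart, and 10 pairs had over 50 reads in both genes. In 8 of the 10 both genes stood on the same side between the lines, and in 2 (H2AC17 with H2BC17, H2BC11 with H2AC11) on opposite sides. The sizes often differed. On the log2 scale of mean FPKM + 0.1, HCT116 minus HepG2, H2BC12 stood at 6.83 and H2AC12 at 1.48, while H2BC8 stood at -3.20 and H2AC8 at -3.54. H2BC4 stood at -0.68 and its partner H2AC6 at -0.02. H2BC11 stood at -1.07 and H2AC11 at 0.08. Genes of a pair share libraries and sequence neighbourhood, so the pairs are described without a test.

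**Figure D2:**
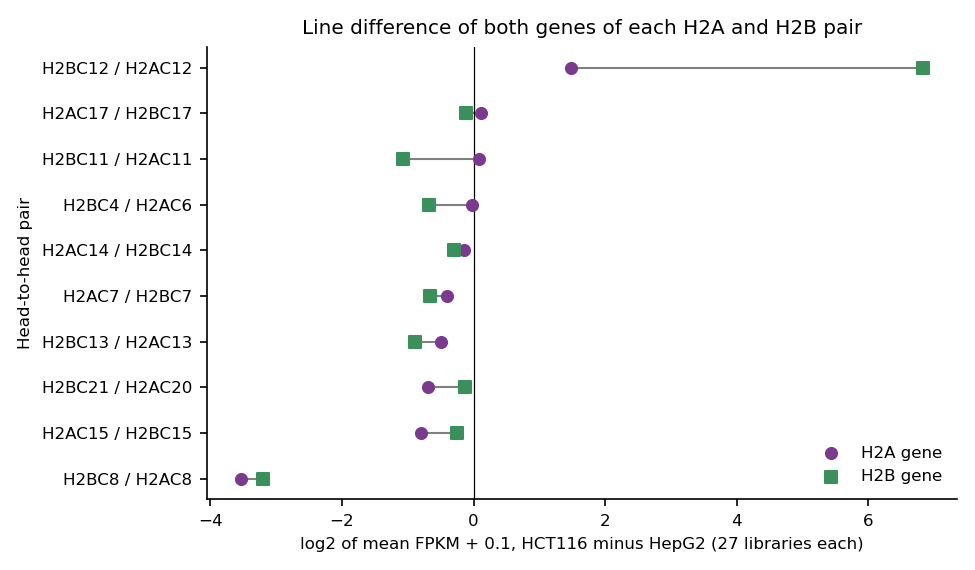
Difference between the lines, log2 of the mean FPKM + 0.1 over 27 libraries, HCT116 minus HepG2, for both genes of the 10 head-to-head H2A and H2B pairs with over 50 reads in each gene. H2BC12 stands at 6.83 with H2AC12 at 1.48, and H2BC8 and H2AC8 stand together at -3.20 and -3.54, while the other genes lie between -1.07 and 0.12.

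Torin1 was set against NC to ask how the members stood within hours of the drug. No group is labelled as a solvent control and NC has no stated time, so mTOR block cannot be told apart from solvent or time here. In HCT116 at 3 h, 3 of 14 members tested rose and none fell, where 53.7% of all genes tested were called and 25.1% were higher. On the log2(FPKM + 1) scale, 13 of the 14 differences were above 0, and their median was 0.23 against -0.0046 for all genes.

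H1-2 had 15.7, 14.3 and 17.2 FPKM in HCT116 NC and 23.0, 24.2 and 23.7 after 3 h of Torin1. All treated libraries stood above all controls, and the rise was log2 0.56 (SE 0.083, limma adjusted p = 7.03e-06). H2BC12 had 16.4, 17.8 and 19.3 FPKM in NC and 21.8, 20.03 and 24.4 after Torin1 (log2 0.29, SE 0.086, limma adjusted p = 0.00690). Its groups did not overlap, but the call was lost without Torin1 replicate 3 (log2 0.22, limma adjusted p = 0.0528). H2BC15 had 0.539, 0.592 and 0.462 FPKM in NC and 0.935, 0.815 and 1.03 after Torin1 (log2 0.33, limma adjusted p = 0.0465), also without overlap. Its call was lost without any 1 of the 6 libraries (log2 0.29 to 0.37, limma adjusted p from 0.0528 to 0.126), and with no filter, median-of-ratios factors, total-read scaling or voom (limma adjusted p from 0.0519 to 0.108). It passed the filter through 5 libraries, of which none was NC.

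Summed over all 68 members, HCT116 libraries had 58.3 to 63.0 FPKM in NC and 76.9 to 81.5 after 3 h of Torin1. Leaving out H1-2 and H2BC12, the sums were 26.2 to 28.9 and 32.7 to 36.1. At 6 h the full sums were 69.6 to 73.4 FPKM, and 29.6 to 32.5 without these genes. Sums above NC were not particular to Torin1: they were 67.6 to 76.2 FPKM after 3 h of IL-10, 63.3 to 71.8 after 6 h of IL-10 and 64.8 to 74.6 after 3 h of TNF-α, wholly above NC as well. Those of IL-6 (59.9 to 71.4 at 3 h and 61.9 to 67.2 at 6 h) and of 6 h of TNF-α (54.8 to 67.1) overlapped NC. The sums are described with no test.

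At 6 h in HCT116 only H1-2 was called, 1 of 14, where 57.2% of all genes tested were called. Its libraries had 21.2, 21.2 and 20.5 FPKM (log2 0.39, SE 0.083, limma adjusted p = 0.000351), all above NC. The median of the 14 was 0.16 against -0.020 for all genes, with 11 of 14 above 0. Between 6 h and 3 h, 0 of 14 were called by limma and 0 had an unadjusted p under 0.05, where 30.4% of all genes were called.

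In HepG2 after 3 h of Torin1, 2 of 18 members tested rose and none fell, where 45.5% of all genes tested were called and 19.4% were higher. H2AC6 had 3.98, 3.85 and 5.14 FPKM in NC and 6.14, 5.03 and 5.30 after Torin1 (log2 0.29, SE 0.10, limma adjusted p = 0.0293), and the groups overlapped. H2BC4, its head-to-head neighbour, had 0.733, 1.04 and 0.928 FPKM in NC and 1.39, 1.33 and 1.04 after Torin1 (log2 0.25, SE 0.085, limma adjusted p = 0.0222). The H2AC6 call was lost without NC replicate 1 or 2 or Torin1 replicate 1 (log2 0.22 to 0.25). The H2BC4 call was lost without NC replicate 1 or Torin1 replicate 1 or 2 (log2 0.18 to 0.22). H1-2 had 13.8, 12.9 and 15.2 FPKM against 12.4, 12.2 and 10.3 in NC, without overlap, and did not pass (limma adjusted p = 0.0506).

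At 6 h in HepG2, 2 of 18 rose and 1 fell, where 59.9% of all genes tested were called, 26.1% higher and 33.8% lower. H1-2 had 16.4, 15.5 and 15.9 FPKM, all above the NC libraries (log2 0.43, SE 0.10, limma adjusted p = 0.000993). H2AC6 had 6.24, 6.32 and 6.21 FPKM, all above its NC libraries as well (log2 0.45, SE 0.10, limma adjusted p = 0.000819). H2AC20 fell, from 3.96, 5.81 and 3.92 FPKM to 3.15, 3.57 and 3.09 (log2 -0.37, SE 0.15, limma adjusted p = 0.0433). All its treated libraries lay below all controls, but the call was lost without NC replicate 2 (log2 -0.21, limma adjusted p = 0.264), Torin1 replicate 1 or Torin1 replicate 3 (log2 -0.35 and -0.34).

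The medians of the 18 HepG2 members were 0.029 at 3 h and 0.023 at 6 h, against -0.036 and -0.033 for all genes. All 68 members summed to 42.9 to 45.8 FPKM in NC, 46.6 to 49.3 at 3 h and 48.3 to 50.1 at 6 h. Without H1-2 and H2BC12 the sums were 31.4 to 33.5, 33.6 to 35.2 and 32.3 to 34.6, and those of 6 h overlapped NC. The IL-10 groups of HepG2 were as high, with full sums of 47.7 to 55.6 FPKM at 3 h and 47.1 to 54.1 at 6 h. Between 6 h and 3 h, 0 of 18 were called by limma and 1 had an unadjusted p under 0.05, where 36.4% of all genes were called.

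The difference of the Torin1 effect between the lines was tested in 11 members that passed in both. At 3 h, 0 of 11 were called and 1 had an unadjusted p under 0.05, where 39.9% of all genes were called. For H1-2 the effect in HCT116 exceeded that in HepG2 by log2 0.32 (SE 0.13, limma adjusted p = 0.0574). At 6 h, 1 of 11 was called, where 50.1% of all genes were. This was H2AC6, whose effect was 0.0017 in HCT116 and 0.45 in HepG2 on the log2 scale, a difference of -0.45 (SE 0.18, limma adjusted p = 0.0373). The call was lost without HCT116 NC replicate 1 or Torin1 replicate 2, without HepG2 NC replicate 1 or 2, and without any of the 3 HepG2 Torin1 libraries (log2 -0.33 to -0.46), and also with no filter (limma adjusted p = 0.0947) or voom (log2 -0.49, limma adjusted p = 0.0596).

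Against the other treatments of its line, H1-2 after Torin1 stood at the top by group mean. In HCT116 the group means ran from 15.7 FPKM in NC and 15.9 after 6 h of TNF-α, through 17.7 for both IL-6 and IL-10 at 6 h, 18.4 for IL-6, 19.1 for TNF-α and 19.9 for IL-10 at 3 h, to 20.9 and 23.6 for Torin1 at 6 h and 3 h. The lowest library of 3 h of Torin1 (23.0) lay above the highest of every other group (21.7), and the other neighbours overlapped or lay within their spread. In HepG2 the means ran from 10.3 after 6 h of IL-6 to 14 and 15.9 after 3 h and 6 h of Torin1, with NC at 11.6. The lowest library of 6 h of Torin1 (15.5) lay just above the highest of the 3 h group (15.2). Summed over the H1 genes, 3 h of Torin1 (13.2 to 15.5 FPKM) overlapped 3 h of IL-10 (11.4 to 13.8). H1-2 did not pass between these 2 groups (log2 0.22, limma adjusted p = 0.0830).

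**Figure D3:**
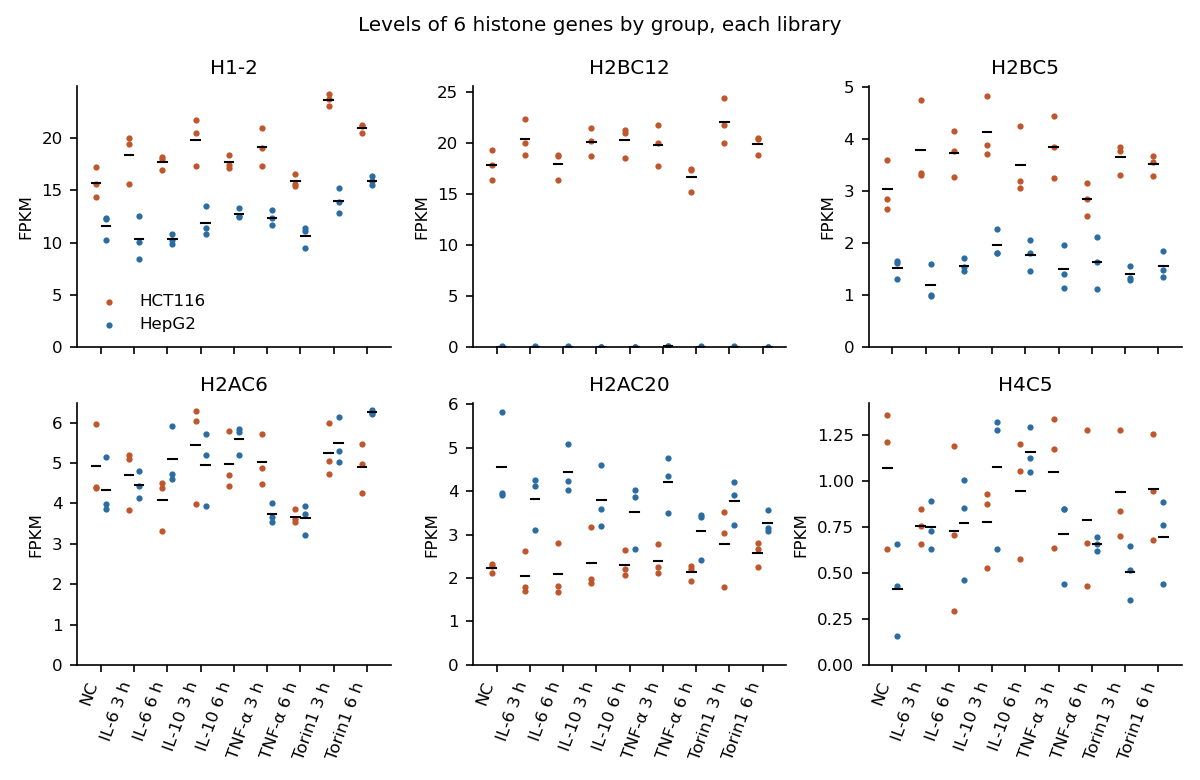
FPKM of 6 members in the 9 groups of each line (points are libraries, bars group means, linear axis per gene). The group means of H1-2 are highest after Torin1 in both lines, H2BC12 lies at 15.2 FPKM or more in all HCT116 groups and near 0 in HepG2, and the points of H4C5 scatter widely within groups.

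The cytokine groups share the NC libraries with each other and with the Torin1 groups, so their differences from NC are not independent of one another. In HCT116, 2 of 14 members rose after 3 h of IL-10, where 38.8% of all genes tested were called and 21.8% were higher. H1-2 had 21.7, 17.4 and 20.5 FPKM (log2 0.32, SE 0.083, limma adjusted p = 0.00483), all above NC. H2BC5 had 4.83, 3.72 and 3.89 FPKM against 2.66, 3.61 and 2.86 in NC (log2 0.35, SE 0.12, limma adjusted p = 0.0297), a call lost without IL-10 replicate 1 or NC replicate 1 or 3 (log2 0.26 to 0.32). After 3 h of TNF-α 1 of 14 rose, where 41.6% of all genes were called and 19.2% were higher. It was H1-2, with 17.3, 21.0 and 19.0 FPKM (log2 0.26, limma adjusted p = 0.0143). This call was lost without NC replicate 2 or TNF-α replicate 2 (log2 0.20 in both).

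The other HCT116 cytokine groups had no called member by limma. The counts at an unadjusted p under 0.05 were 2 of 14 for IL-6 at 3 h, 0 for IL-6 at 6 h, 0 for IL-10 at 6 h and 1 for TNF-α at 6 h. Of all genes tested, 31.6%, 16.6%, 20.5% and 33.9% were called in these groups.

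In HepG2, H2BC11 had 1.20, 1.53 and 1.20 FPKM in NC, 2.60, 1.68 and 2.32 after 6 h of IL-6 and 1.96, 2.79 and 2.06 after 3 h of IL-10, and both treated groups stood above NC in every library. The differences were log2 0.46 (SE 0.15, limma adjusted p = 0.0324) and log2 0.50 (SE 0.15, limma adjusted p = 0.0236). The first call was lost without IL-6 replicate 1 or 3 or NC replicate 1 or 3 (log2 0.37 to 0.43), and the second without IL-10 replicate 2 or NC replicate 1 or 3 (log2 0.39 to 0.46). H2BC11 was the only 1 of 18 called for IL-6 at 6 h, where 19.4% of all genes were called, and 1 of 2 for IL-10 at 3 h, where 19.1% were.

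The other was H4C5. It had 0.156, 0.432 and 0.659 FPKM in HepG2 NC and 1.32, 1.28 and 0.629 after 3 h of IL-10 (log2 0.55), with overlap, and 1.053, 1.13 and 1.30 after 6 h (log2 0.62), without overlap. These levels rested on 37 reads over the 3 NC libraries. Of the 6 HepG2 libraries in which H4C5 reached 1 FPKM, 2 were IL-10 at 3 h and 3 were IL-10 at 6 h, so it passed the filter through the groups where it was high, and its values are a description with no test. H4C5 was the only 1 of 18 called for IL-10 at 6 h, where 11.7% of all genes were called.

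TNF-α at 6 h called 1 of 18 in HepG2, where 28.7% of all genes were called. H2AC20 fell to 2.40, 3.41 and 3.46 FPKM from 3.96, 5.81 and 3.92 (log2 -0.44, SE 0.15, limma adjusted p = 0.0357). The call was lost without NC replicate 2 (log2 -0.28) or TNF-α replicate 1 (log2 -0.31). IL-6 at 3 h and TNF-α at 3 h called 0 of 18 by limma, with 2 and 1 at an unadjusted p under 0.05, where 33.9% and 29.7% of all genes were called.

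Several of these calls against NC were also lost with other settings. With no filter these were H2BC5 after 3 h of IL-10 in HCT116, and in HepG2 H2AC6 and H2BC4 after 3 h of Torin1, H2AC20 after 6 h of Torin1 or TNF-α and H2BC11 after IL-6 and IL-10 (limma adjusted p from 0.0556 to 0.112). With voom they were H2AC6 after 3 h of Torin1 and H2AC20 after 6 h of Torin1 or TNF-α (limma adjusted p from 0.0557 to 0.0769). A fit of only the groups compared lost H1-2 after 3 h of TNF-α and H2BC5 after 3 h of IL-10 in HCT116, and H2AC6 and H2BC4 after 3 h of Torin1 and H2AC20 after 6 h of TNF-α in HepG2 (limma adjusted p from 0.0525 to 0.0845).

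**Figure D4:**
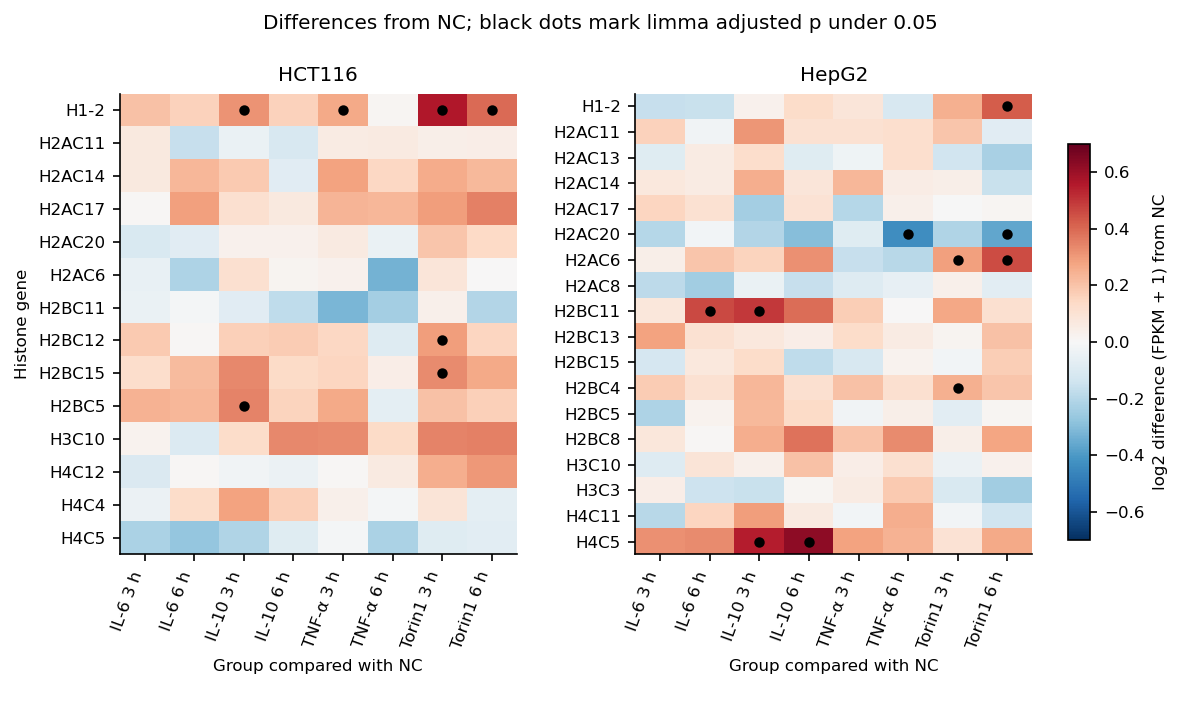
Difference from NC of every tested member (rows, 14 in HCT116 and 18 in HepG2) after each of 8 treatments (columns), as log2 on the log2(FPKM + 1) scale in colour, with a black dot where the limma adjusted p is under 0.05. H1-2 carries dots in both Torin1 columns of HCT116 and in the 6 h Torin1 column of HepG2, and no member carries a dot in more than 4 columns of a line.

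NC has no stated time, so the differences were also taken against IL-10 of the same hour, itself a treated group. H1-2 after Torin1 was then still higher in HCT116 at 3 h (log2 0.25, limma adjusted p = 0.0196) and 6 h (log2 0.23, limma adjusted p = 0.0202) and in HepG2 at 6 h (log2 0.30, limma adjusted p = 0.0143). H2BC12 in HCT116 at 3 h (log2 0.12), H2BC15 there (-0.0049), H2AC6 in HepG2 (0.13 at 3 h and 0.14 at 6 h), H2BC4 (0.01) and H2AC20 after Torin1 (-0.07) or TNF-α (-0.14) did not pass. Nor did H2BC11 after 6 h of IL-6 in HepG2 (log2 0.07, limma adjusted p = 0.797). H1-2 after 3 h of TNF-α in HCT116 (log2 -0.05) did not pass either. In all, 1 and 2 of 14 were called for Torin1 at 3 h and 6 h in HCT116, where 44.3% and 57.3% of all genes were called, and 1 and 3 of 18 in HepG2, where 45.5% and 59.0% were. The 1 in HepG2 at 3 h was H4C5, which was also among the 3 at 6 h. It passed the filter through the IL-10 libraries, here the control, so its call is no test result. The member medians after Torin1 were then 0.12 and 0.063 in HCT116, lower than against NC, and -0.093 and -0.11 in HepG2, below the -0.018 and -0.014 of all genes, whereas they lay above all genes against NC. For IL-6 in HCT116, 0 of 14 were called at either time, where 0.237% and 0.114% of all genes were.

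Against IL-10 some members differed that did not differ from NC. In HepG2, H2AC6 was lower after TNF-α at 6 h (log2 -0.51, limma adjusted p = 0.000650) and 3 h (log2 -0.32, limma adjusted p = 0.0427), H2BC11 was lower after 3 h of IL-6 (log2 -0.41) and 6 h of TNF-α (log2 -0.39), and H1-2 was lower after 6 h of IL-6 (log2 -0.28). H2BC5 (-0.44) and H4C11 (-0.49) were lower after 3 h of IL-6 and H2BC8 (-0.37) after 6 h. The limma adjusted p of H2BC11, H1-2 and H2BC8 lay from 0.0466 to 0.0492, close to the threshold. Replicate 3 of 3 h of IL-6 had a lower sum over all members (34.8 FPKM) than replicates 1 and 2 (49.4 and 45.5). No library was left out in the fits against IL-10, so how far these calls rest on 1 library was not tested. After Torin1 in HepG2, H4C5 stood lower than after IL-10 at 3 h (log2 -0.45) and 6 h (log2 -0.36), again with the filter passed through the IL-10 libraries, and H2BC15 was higher at 6 h (log2 0.35). In HCT116, H2AC14 was higher after 6 h of Torin1 (log2 0.30) and H2BC12 lower after 6 h of TNF-α (log2 -0.27). For the HepG2 cytokines 3 and 2 of 18 were called for IL-6 at 3 h and 6 h, where 22.8% and 23.6% of all genes were, and 1 and 2 for TNF-α, where 16.1% and 34.8% were. For TNF-α in HCT116 the counts were 0 and 1 of 14, where 36.5% and 42.3% of all genes were called.

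The genes that make and control histone messages were read in the same Torin1 libraries. SLBP, the stem-loop binding protein, fell in both lines at both times: in HCT116 from 114 ± 2.17 FPKM to 93.2 ± 2.51 at 3 h and 96.4 ± 2.00 at 6 h (log2 -0.29 and -0.24), and in HepG2 from 77.4 ± 1.43 to 62.0 ± 1.24 and 56.4 ± 2.92 (log2 -0.32 and -0.45). LSM10, a part of the U7 particle, also fell, by log2 -0.57 and -0.67 in HCT116 and -0.53 and -0.82 in HepG2. LSM11, the other U7-specific protein, fell in HCT116 at 3 h (log2 -0.23), did not pass there at 6 h (log2 -0.02) and rose in HepG2 at both times (log2 0.15 and 0.41), by the same test. NPAT, the coactivator of histone transcription, rose from 7.5 ± 0.462 FPKM to 10.6 ± 0.782 and 9.58 ± 0.518 in HCT116 (log2 0.45 and 0.32) and from 4.53 ± 0.263 to 7.17 ± 0.124 and 6.29 ± 0.254 in HepG2 (log2 0.56 and 0.40). Each of the 12 differences of SLBP, LSM10 and NPAT had a limma adjusted p under 0.05. Of the tested genes of 3′ end processing and histone message control, 4 of 27 rose and 12 fell at 3 h and 4 rose and 13 fell at 6 h in HCT116 (median log2 -0.08 and -0.09). In HepG2, 7 of 26 rose and 13 fell at 3 h and 8 rose and 15 fell at 6 h (median -0.11 and -0.16). Of all genes, 53.7% and 57.2% were called in HCT116 and 45.5% and 59.9% in HepG2, so the HCT116 counts, 16 and 17 of 27, lie near the background. Falls in this list at 3 h were not particular to Torin1. IL-6, IL-10 and TNF-α gave 7, 8 and 13 falls and 1, 2 and 2 rises in HCT116. There 31.6%, 38.8% and 41.6% of all genes were called. In HepG2 they gave 9, 7 and 8 falls and 3, 2 and 2 rises, where 33.9%, 19.1% and 29.7% were called. At 6 h no cytokine group gave more than 5 falls or 5 rises, where 11.7% to 33.9% were called.

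Histone genes that are not members were read as well, and many of these have ordinary polyadenylated messages made outside S phase. Whether the values of H2AX are of such a message was not tested. The linker histone gene H1-10 rose in both lines at both times (log2 0.42 and 0.53 in HCT116, 0.28 and 0.31 in HepG2). H2AZ1, which codes for the variant H2A.Z found near promoters, fell in HepG2 from 505 ± 9.71 FPKM to 423 ± 15.5 and 322 ± 12.4 (log2 -0.26 and -0.65).

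In HCT116 H2AZ1 did not pass at 3 h (log2 0.02) and fell at 6 h (log2 -0.13), a call lost without Torin1 replicate 1 (log2 -0.11). H2AX, the variant that is phosphorylated at DNA breaks, fell in HepG2 (log2 -0.28 and -0.48) and at 6 h in HCT116 (log2 -0.22, lost without NC replicate 1 at -0.21 or Torin1 replicate 1 at -0.17). H3-3B, a gene of the replacement histone H3.3, fell in HepG2 at 6 h (log2 -0.19) and rose in HCT116 at 6 h (log2 0.08, lost with no filter and without NC replicate 2 or Torin1 replicate 1 or 3, at 0.07 in each). Against IL-10 of the same hour H3-3B at 6 h and H2AZ1 at 3 h in HCT116 were called lower, as listed below. Of 10 such genes tested, 4 rose and 0 fell at 3 h and 5 rose and 3 fell at 6 h in HCT116, against 2 and 5 at 3 h and 2 and 8 at 6 h in HepG2, to be read against 53.7%, 57.2%, 45.5% and 59.9% of all genes called.

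**Figure D5:**
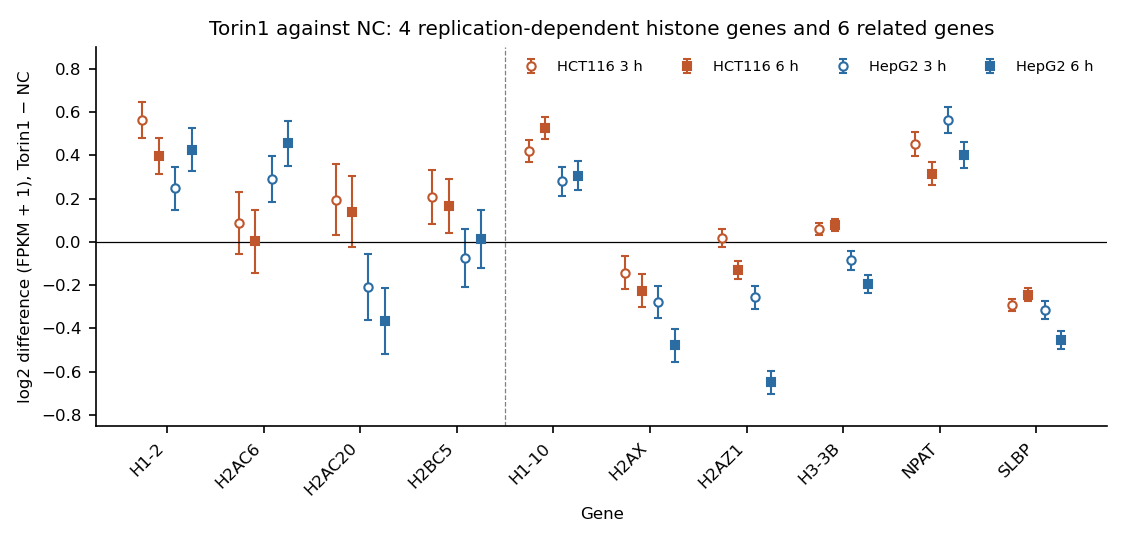
Torin1 minus NC on the log2(FPKM + 1) scale (points, with SE as bars) at 3 h and 6 h in each line for the members H1-2, H2AC6, H2AC20 and H2BC5 and for H1-10, H2AX, H2AZ1, H3-3B, NPAT and SLBP. NPAT and H1-10 lie above 0 and SLBP below 0 in all 4 comparisons, and H2AZ1 reaches -0.65 in HepG2 at 6 h.

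Cell-cycle genes were read beside these values, and their part in the histone differences was not tested. The same shares of all genes, 53.7% and 57.2% in HCT116 and 45.5% and 59.9% in HepG2, are the background of the counts. Of 35 G1/S and DNA replication genes tested, 2 rose and 19 fell at 3 h and 2 rose and 29 fell at 6 h in HepG2 (median log2 -0.13 and -0.38). The replication licensing factor CDC6 fell from 42.5 ± 0.647 FPKM to 24.1 ± 0.241 and 19.5 ± 0.850 there (log2 -0.79 and -1.09). Falls of the listed genes were not particular to Torin1. In HepG2 against the same NC, IL-6 gave 1 rise and 21 falls at 3 h and 0 and 20 at 6 h. TNF-α gave 2 and 15 and then 0 and 18, and IL-10 gave 0 and 11 and then 1 and 4. The medians were -0.12 and -0.13, -0.07 and -0.11, and -0.06 and -0.02. Of all genes, 33.9% and 19.4%, 29.7% and 28.7%, and 19.1% and 11.7% were called. After Torin1 in HCT116, 11 rose and 11 fell at 3 h and 7 rose and 15 fell at 6 h (median 0.02 and -0.06). Of 15 G2/M genes, 13 rose at 3 h in HepG2 and 5 rose and 3 fell at 6 h, while in HCT116 4 rose and 3 fell at 3 h and 6 rose and 5 fell at 6 h. Of 22 histone chaperone genes, which carry new histones to DNA, 7 rose and 7 fell at 3 h and 5 rose and 6 fell at 6 h in HCT116, and 2 rose and 8 fell and 3 rose and 15 fell in HepG2.

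Between the lines in NC, SLBP (log2 0.56), NPAT (0.62), H2AZ1 (0.61), H3-3B (0.62) and H2AX (0.22) were higher in HCT116, and H1-10 (-0.52) was lower. Each of these 6 differences had a limma adjusted p under 0.05.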

How the data were processed

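Polyadenylated RNA of 54 libraries (2 lines, 18 groups of 3) was sequenced. The authors deposited FPKM values, with FastQC, HISAT2, StringTie, DESeq2 and the GRCh38 build named in the submitters' processing notes without versions or settings. Columns were matched to samples by title, and 48 columns of other comparisons were not used. Whole reads were recovered from the steps between FPKM values for 36451 of 36451 genes above 0 (tolerance 0.01 read), so depth is known (38536745 to 93700982 reads on genes). For genes with few values above 0 the recovered reads and length may be off by a whole factor. H2BC10 came out at 241 of 482 spanned bases and H3C8 at 248 of 496. In the shallowest library 1 read on 1 kb was worth 0.0244 FPKM. Read limits cover counting error only. No 2 libraries of a group matched within counting noise: the lowest chi-square over its degrees of freedom was 3.34.

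Each line was fitted with limma 3.58.1 in R 4.3.3 on log2(FPKM + 1), using trended empirical Bayes moderation, 1 mean per group and no covariate, keeping genes that reached 1 FPKM in 3 or more of 27 libraries (11395 genes in HCT116, 11280 in HepG2). A fit of all 54 libraries gave differences between lines (9683 genes passing in both, 12992 in either for NC). P-values were adjusted by Benjamini-Hochberg over all genes tested and called under 0.05. The test was tested on simulated data. Stem-loops were searched in GENCODE release 29 transcripts, and promoters and positions came from RefSeq (GRCh38.p14, counted from 1). Tables were handled with Python 3.11.15, pandas 2.3.3 and numpy 2.4.6, plots with matplotlib 3.10.9.

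The members, the gene lists, the motifs and the alternatives were chosen with earlier results of these data known. For each comparison members were named by size of change, up to 5 that rose and 5 that fell among those called, with the NC level of every member above the filter, up to 4 called genes of each list and 6 fixed genes (SLBP, NPAT, H2AX, H2AZ1, H3-3B and H1-10), while another fixed gene is not reported here. Members singled out for reading in 1 line, and the order of H1-2 over groups, were chosen after their values were seen. Alternatives were a pseudocount of 0.1, no filter, median-of-ratios factors, total-read scaling, voom on recovered reads, the replicate number as a block, only the groups compared, IL-10 of the same hour as control, leaving out genes with a copy row, and leaving out each library.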

Additional observations from a re-analysis of the deposited data

Results flagged for a closer look

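Over the members and 6 fixed genes (SLBP, NPAT, H2AX, H2AZ1, H3-3B and H1-10), the Torin1 effect differed between the lines in 8 gene and time combinations. The limma test of that difference was adjusted over all 9683 genes, and values are the log2 effect in HCT116 minus that in HepG2. For 1 histone gene of the clusters, H2AC6 at 6 h, the difference was -0.45 (limma adjusted p = 0.0373), and its values stand in the report. Among histone genes outside the clusters, H2AZ1 differed at 3 h (0.27, limma adjusted p = 0.00166) and 6 h (0.52, limma adjusted p = 7.7e-08). H3-3B differed at 3 h (0.15, limma adjusted p = 0.0202) and 6 h (0.27, limma adjusted p = 2.84e-05). H1-10 differed at 6 h (0.22, limma adjusted p = 0.0332), as did H2AX (0.25, limma adjusted p = 0.0483). SLBP differed at 6 h (0.21, limma adjusted p = 0.000835).

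The H3-3B call at 3 h was lost without HCT116 Torin1 replicate 3, HepG2 NC replicate 1 or HepG2 Torin1 replicate 2 (0.13 in each). The H1-10 call was lost without NC replicate 1 or 2 of either line, HCT116 Torin1 replicate 1, or HepG2 Torin1 replicate 1 or 2 (0.19 to 0.21), and with no filter. The H2AX call was lost without any HCT116 NC library, HCT116 Torin1 replicate 2 or 3, HepG2 NC replicate 2 or any HepG2 Torin1 library (0.20 to 0.27), and with no filter, total-read scaling (0.23) or the replicate block (0.25). The H2AZ1 and SLBP calls and the H3-3B call at 6 h held in each of the 12 fits that left out 1 library.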

How the results depend on the processing

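The counts of called members were recomputed under each alternative for 21 comparisons. With a pseudocount of 0.1 and with median-of-ratios factors every count stayed within 1.5 times the reported one. Total-read scaling, which shifted the median of all genes between the lines by 0.18 log2, gave 1 for TNF-α at 6 h in HCT116 and 2 for IL-10 at 6 h in HepG2, and leaving out genes with a copy row also gave 2 there. Voom gave 0 for TNF-α at 6 h in HepG2 and 0 for the line difference of Torin1 at 6 h. With no filter, which also tested members near 0, the counts were 1 for IL-10 at 3 h, 5 for Torin1 at 3 h and 2 at 6 h in HCT116. In HepG2 they were 1 for IL-10 at 3 h, 0 for TNF-α at 6 h, 1 for Torin1 at 3 h and 1 for 6 h against 3 h. The line differences of Torin1 then gave 2 at 3 h and 0 at 6 h, and the NC comparison 19. A fit of only the groups compared gave 0 for TNF-α at 3 h, 2 for Torin1 at 6 h and 1 for 6 h against 3 h in HCT116. In HepG2 it gave 1 for IL-10 at 3 h, 2 at 6 h and 1 for Torin1 at 3 h, and the line differences gave 1 at 3 h and 2 at 6 h. With IL-10 as control the counts were 0 and 1 for TNF-α at 3 h and 6 h and 1 and 2 for Torin1 in HCT116. In HepG2 they were 3 and 2 for IL-6, 1 and 2 for TNF-α and 1 for Torin1 at 3 h. That 1 was H4C5, which passed the filter through the IL-10 libraries. The cause of these shifts was not tested.

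Signs were compared, with IL-10 as control, for the members called against NC and for the other named genes after Torin1. Of these log2 values 6 changed sign, all in HCT116. They were H1-2 after TNF-α at 3 h (-0.05), and after Torin1 H2BC15 (-0.0049), H2AZ1 (-0.21, also past the threshold), H3-3B (-0.12, past it too) and TONSL (0.08) at 3 h and H3-3B at 6 h (-0.08, past it too). Members not called against NC are outside this count. The HepG2 member medians after Torin1 also changed sign, from 0.029 and 0.023 to -0.093 and -0.11.

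Leaving out 1 library gave 0 to 1, 0 to 0, 1 to 3, 0 to 0, 1 to 2 and 0 to 0 called members in HCT116 for IL-6, IL-10 and TNF-α at 3 h and 6 h in turn, 2 to 3 and 1 to 2 for Torin1, and 0 to 0 for 6 h against 3 h. In HepG2 the same order gave 0 to 1, 0 to 1, 0 to 3, 0 to 2, 0 to 1, 0 to 1, 0 to 2, 2 to 4 and 0 to 0. The line differences gave 0 to 1 at 3 h and 0 to 3 at 6 h, and the NC comparison 10 to 12; of the 12 reported, 7 passed the filter only in the line where they were high.

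No strong pairing by replicate number was seen. In 0 of 21 comparisons did every same-numbered pair correlate over 0.1 in its deviations from the group means (correlations from -0.117 to 0.107). In 2 comparisons each library was closest to its own number. All correlations were above 0 in some comparisons, such as Torin1 at 3 h against NC in HCT116 (0.036 to 0.082). For the line differences of Torin1 only the HCT116 groups were checked. With the replicate number as a block, the line difference of Torin1 at 3 h had 1 called member in place of 0, Torin1 at 3 h in HepG2 had 3 in place of 2, and the other counts were within 1.5 times. Depth limits the low members: of 68, only 14 in HCT116 and 18 in HepG2 passed the filter, and H4C5, which did, rested on 37 reads over the 3 HepG2 NC libraries.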
